A study of Mus musculus with 11 samples.

Results

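Border-associated macrophages (BAMs) are the resident macrophages of the meninges, the perivascular spaces and the choroid plexus. They lie along vessels and at the edges of the brain rather than in its parenchyma, which holds the microglia. In mice they are known by the mannose receptor Mrc1 (CD206), the chemokine Pf4, the haemoglobin scavenger receptor Cd163, the hyaluronan receptor Lyve1 and the membrane protein Ms4a7. They clear debris, handle iron and lipid and present antigen, and those with much Lyve1 and those with much MHC class II are usually described as separate states. Lrg1 encodes leucine-rich alpha-2-glycoprotein 1, a secreted glycoprotein made by liver, neutrophils and activated endothelium.

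Droplet single-cell RNA sequencing of right brain tissue was available from 11 mice in 4 groups. The sham + WT group (replicates 1, 2 and 3) and the MCAO/R + WT group (replicates 1 and 2) were wild-type C57BL/6 mice, described in the methods as males of 8 to 10 weeks. The sham + Lrg1-/- group and the MCAO/R + Lrg1-/- group (replicates 1, 2 and 5 in each) carried a conventional deletion of Lrg1, lost in every cell of the body from birth. The knockouts came from another source than the wild types and were backcrossed to C57BL/6N, the methods also name C57BL/6 J for them, and no substrain is given for the wild types, so source and substrain cannot be told apart from genotype. The methods give 3 months for the knockouts and no sex. MCAO/R is filament occlusion of the middle cerebral artery followed by reperfusion, and sham mice had surgery without occlusion. The reperfusion time of the sequenced mice is not given in the labels. Each library came from 1 mouse, so the p-values measure the spread between mice.

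A barcode was retained with more than 500 genes, more than 1000 UMIs (counted RNA molecules) and less than 25% mitochondrial UMIs. It was taken as a BAM when at least 3 of the 6 genes Mrc1, Pf4, Cd163, Lyve1, Cbr2 and Ms4a7 had a UMI, fewer than 3 of the 5 microglial genes P2ry12, Tmem119, Siglech, Sall1 and Gpr34 were detected, and fewer than 2 of Cldn5, Mog, Mag, Aqp4 and Kcnj13 were detected. The rule took 1079 of 132437 retained cells. There were 155, 120 and 108 BAMs in the sham + WT mice, 78, 34 and 12 in the sham + Lrg1-/- mice, 145 and 81 in the MCAO/R + WT mice, and 21, 160 and 165 in the MCAO/R + Lrg1-/- mice. Just inside the threshold were 337 cells with exactly 3 of the 6 markers, and 742 cells had 4 or more. Just outside were 842 cells with 2 markers. A further 340 cells with enough BAM markers were left out for 3 or more microglial genes and 1116 for genes of other cell types. The cells were thus chosen by the detection of these 16 genes, whose values are given below as levels without a test.

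Genes that the rule did not use were detected more often in BAMs than in oligodendrocytes, a comparison that does not set BAMs apart from monocytes. F13a1, the A chain of coagulation factor XIII and a gene of tissue macrophages, had a UMI in 84.4% of BAMs and in 8.15% of oligodendrocytes, which should lack it. Stab1, a scavenger receptor, was detected in 77.2% against 19.9%. Clec10a, a galactose-binding lectin, was detected in 49.1% against 1.21%, and the folate receptor Folr2 in 35.3% against 1.46%. Median depth was 2056 to 11606 UMIs per BAM across libraries and 2170 to 14955 per oligodendrocyte. The rule genes themselves reached 94.3% (Mrc1), 93.3% (Pf4), 86.7% (Ms4a7), 58.5% (Cbr2), 49.7% (Cd163) and 47.9% (Lyve1) of BAMs.

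Several libraries stood apart. The BAMs of MCAO/R + Lrg1-/- replicates 2 and 5 held more UMIs of monocyte markers: 31.3% and 67.9% of them had 2 or more of 8 monocyte genes (Ccr2, Chil3 and Plac8 among them), against at most 4.76% in every other library. Pooled over all libraries, Ccr2 was detected in 11.9% of BAMs and 3.85% of oligodendrocytes, and Chil3 in 14.1% and 18.8%, not more often in BAMs. Libraries gave different numbers of each kind of cell, so these pooled rates set no background for a single library. In replicate 5 the 131 of 165 BAMs without a Lyve1 UMI had 18.5 CPM of Folr2, 0.740 of Cd209f, 23.7 of Clec10a and 2618 of summed monocyte markers, and the 34 with Lyve1 had 195, 27.8, 204 and 306 CPM. F13a1 was present in both, at 1044 and 2234 CPM. For most cells of that library these genes other than F13a1 go against the name BAM, which there means only the rule. In MCAO/R + Lrg1-/- replicate 2 the 63 BAMs without Lyve1 had 23.7 CPM of Folr2, 0 of Cd209f, 29.9 of Clec10a and 2092 of monocyte markers. The 97 with Lyve1 had 228, 180, 263 and 226 CPM. F13a1 stood at 492 and 1915 CPM. For those 63 cells the same genes go against the name too. The same group's summed monocyte-marker level ran from 33.1 to 2499 CPM (counts scaled to a common library total), against 9.47 to 193 CPM in the sham + WT mice. Haemoglobin RNA (summed erythroid markers) was 5988 to 61569 CPM in the sham + Lrg1-/- mice and 16542 to 41509 CPM in the MCAO/R + Lrg1-/- mice, and at most 48.8 CPM in the wild-type mice, so blood RNA moved with genotype. Xist, the long RNA of the inactive X chromosome, stood at 643 and 462 CPM in the BAMs of MCAO/R + Lrg1-/- replicates 1 and 2 and at 0.694 CPM or less in every other library. Ddx3y, a Y-linked gene, stood at 0 in these 2 libraries and at 111 to 275 CPM in the other 8, so sex may differ within this group and between it and the groups it is compared with, and its part in the results was not tested. Libraries held 37159497 to 171813031 UMIs in all, and any pair shared at most 1.24% of the smaller one's barcodes and at most 1 BAM barcode. Lrg1 was read at 0, 1.18 and 0 CPM in the sham + WT BAMs, at 140 and 65.4 CPM after MCAO/R in wild-type mice, and at 0 in all 5 knockout libraries used for expression. The knockout labels could therefore be checked only after MCAO/R.

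**Figure D1:**
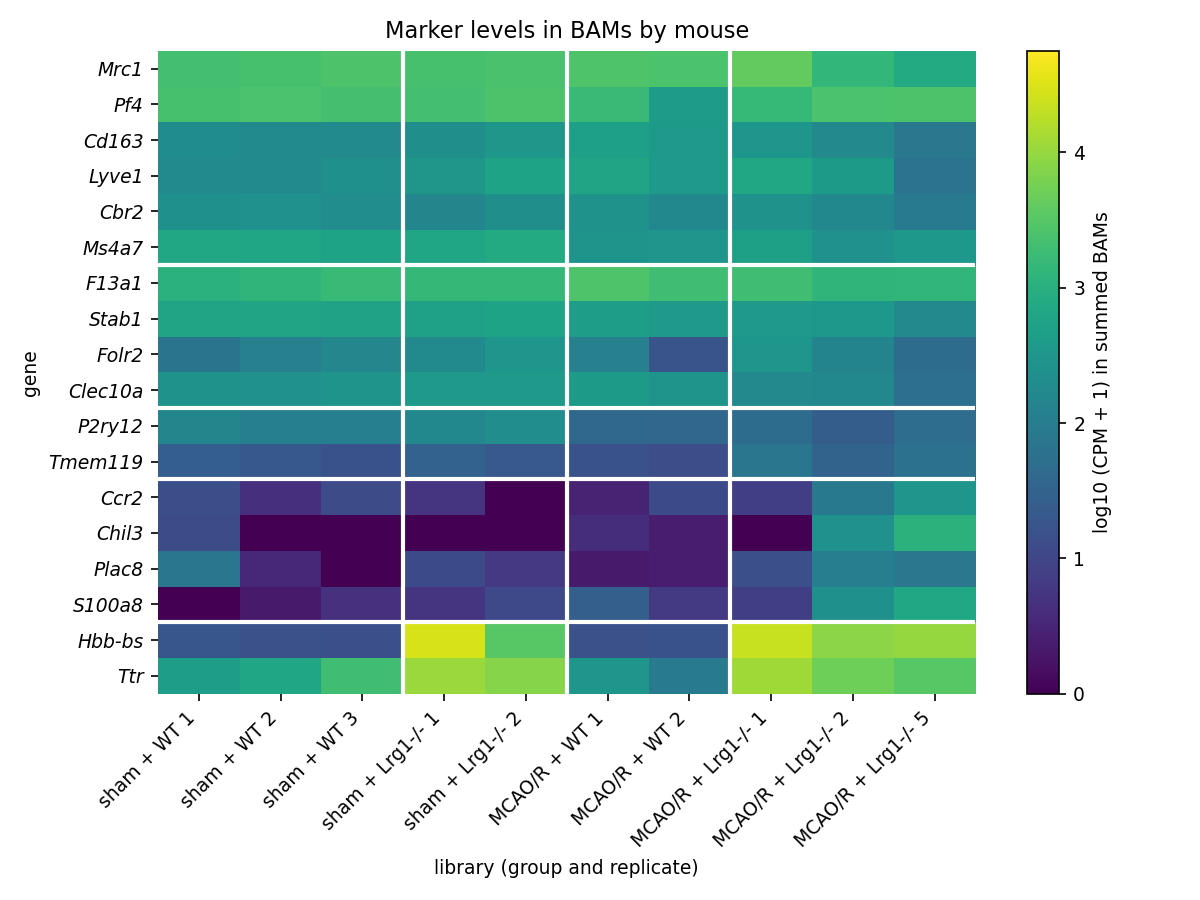
Heat map of log10 (CPM + 1) in the summed BAMs, with genes in rows (the rule markers, other BAM genes, 2 microglial genes, monocyte and neutrophil genes, and Hbb-bs and Ttr) and the 10 libraries used for expression in columns, white lines separating the groups. Ccr2 and Chil3 are dark except in MCAO/R + Lrg1-/- replicates 2 and 5, and Hbb-bs is bright in the 5 knockout libraries only, from 3318 to 29505 CPM.

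Levels of the defining genes differed between mice mainly after MCAO/R. Mrc1, an endocytic receptor for mannose-bearing glycoproteins, stood at 2122, 2309 and 2624 CPM in the sham + WT mice, 2346 and 2465 CPM in the sham + Lrg1-/- mice, 2794 and 2550.3 CPM in the MCAO/R + WT mice and 4016, 1395 and 807 CPM in the MCAO/R + Lrg1-/- mice. Lyve1 stood at 189, 178 and 236 CPM, 325 and 562 CPM, 602 and 351 CPM, and 703, 381 and 62.4 CPM in the same order of mice. MCAO/R + Lrg1-/- replicate 5 was the lowest of all 10 libraries for both, and 20.6% of its BAMs had a Lyve1 UMI, against 35.8% to 77.2% elsewhere. Pf4 was lowest in MCAO/R + WT replicate 2 at 400.4 CPM, with 1518 to 2661 CPM in the other 9 libraries. Ms4a7 stood at 285 and 308 CPM in the MCAO/R + WT mice, below all 5 sham libraries at 576 to 788 CPM.

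Promoter sequence is shown for 4 genes from the groups that the stroke comparison turns on, a glucocorticoid-responsive group and MHC class II. The windows are the 200 bases before the gene start in RefSeq (GRCm38.p6), printed 5′ to 3′ on the gene's strand. Capitals mark, in Mt1 (chr8:94178889-94179088, plus strand) and Sgk1 (chr10:21993690-21993889, plus strand), the palindromic pattern bound by the glucocorticoid receptor, GNACA, then any 3 bases, then TGTNC. In H2-Aa (chr17:34287824-34288023, minus strand) and H2-Eb1 (chr17:34305667-34305866, plus strand) they mark CCAAT, the Y box of MHC class II promoters, or its reverse complement ATTGG.
Mt1: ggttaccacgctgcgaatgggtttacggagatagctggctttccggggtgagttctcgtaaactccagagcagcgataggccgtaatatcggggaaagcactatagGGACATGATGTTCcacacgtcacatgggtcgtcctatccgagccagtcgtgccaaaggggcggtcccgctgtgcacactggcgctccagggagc
Sgk1: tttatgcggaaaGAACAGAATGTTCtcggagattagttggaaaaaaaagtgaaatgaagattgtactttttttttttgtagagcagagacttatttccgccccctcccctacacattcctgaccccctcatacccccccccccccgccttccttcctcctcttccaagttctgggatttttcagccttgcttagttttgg
H2-Aa: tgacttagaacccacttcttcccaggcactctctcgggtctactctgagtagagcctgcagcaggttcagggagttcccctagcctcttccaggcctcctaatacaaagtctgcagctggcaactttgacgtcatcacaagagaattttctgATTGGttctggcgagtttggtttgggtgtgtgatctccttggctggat
H2-Eb1: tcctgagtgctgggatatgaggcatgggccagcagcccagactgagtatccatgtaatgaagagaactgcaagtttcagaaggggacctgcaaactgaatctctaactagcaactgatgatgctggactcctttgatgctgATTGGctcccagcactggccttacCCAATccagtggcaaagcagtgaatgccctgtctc
The marked pattern began 94 bases before the start of Mt1 and 188 bases before the RefSeq start of Sgk1 used here. ATTGG began 48 bases before the start of H2-Aa and 59 bases before that of H2-Eb1, which also had CCAAT at 35 bases. Searched on both strands, the palindromic pattern was in 0.271% of 32851 promoter windows of this length, and CCAAT in 29.3%. Of the 9 genes of the glucocorticoid list 8 had a promoter in the table, with 16 windows of this length, and 2 of these genes held the palindromic pattern. CCAAT was in 5 of the 8 glucocorticoid genes and in 5 of the 8 genes with a promoter in the list of MHC class II and choroid plexus BAM genes (H2-Aa, H2-Eb1, H2-DMa, H2-DMb1 and Klra2). These are matches of letters and not measured binding. The counts over lists are per gene, while 0.271% and 29.3% are per window. A gene with several windows therefore had more chances of a match. Sgk1 had further RefSeq starts, and none of their windows held the palindromic pattern.

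The first comparison asked how many cells that pass the rule each brain yielded. By group means, the cells that passed the rule were about 1 retained cell in every 100 in wild-type mice. The mean share was smaller in the knockouts under both surgeries. The share was 1.12%, 1.22% and 1.14% in the sham + WT mice, 0.824%, 0.600% and 0.369% in the sham + Lrg1-/- mice, 1.46% and 0.650% in the MCAO/R + WT mice, and 0.326%, 0.893% and 0.483% in the MCAO/R + Lrg1-/- mice. The sham groups did not overlap, and the MCAO/R groups did. In MCAO/R + Lrg1-/- replicates 2 and 5, 50 of 160 and 112 of 165 of the cells counted had 2 or more monocyte markers. For many of them the name BAM means only the rule, and the share without them was not tested. Within each surgery alone, the genotype difference had an exact permutation p of 0.1 in sham mice and 0.3 after MCAO/R (smallest possible 0.1). Group means were 1.16% ± 0.0501 (SD, n = 3), 0.598% ± 0.227 (n = 3), 1.05% ± 0.571 (n = 2) and 0.567% ± 0.293 (n = 3). With genotype permuted within surgery over all 200 arrangements, the knockout share was lower by 0.525 percentage points (difference -0.525, two-sided exact permutation p = 0.02, smallest possible 0.005).

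This difference rested on the denominator and on single libraries. Among BAMs and microglia alone, the genotype difference was 0.0256 points (exact permutation p = 0.995), and after thinning every cell to 1000 UMIs it was -0.354 points (exact permutation p = 0.14). It missed the threshold without MCAO/R + WT replicate 1 (-0.323 points, exact permutation p = 0.125), without MCAO/R + Lrg1-/- replicate 1 (-0.465 points, exact permutation p = 0.0667) and without MCAO/R + Lrg1-/- replicate 5 (-0.504 points, exact permutation p = 0.0667). Surgery moved the share by -0.107 points in wild-type mice (exact permutation p = 0.7) and by -0.0303 points in knockouts (exact permutation p = 0.9), in designs whose smallest possible p is 0.1. A share depends on how well each cell type survives dissociation, which was not tested. The rule also left out cells with enough BAM markers that held genes of other cell types. They numbered 206 beside 383 BAMs in sham + WT mice and 212 beside 124 in sham + Lrg1-/- mice. After MCAO/R they numbered 182 beside 226 in wild-type mice and 516 beside 346 in knockouts. The part of this in the share difference was not tested.

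**Figure D2:**
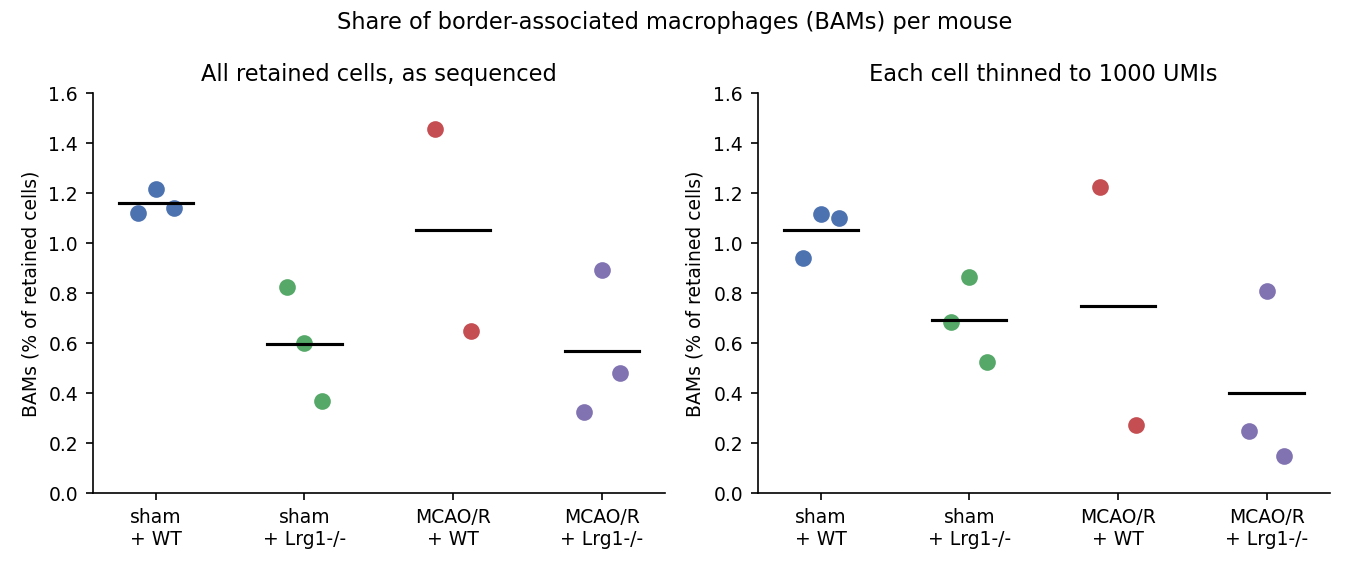
BAMs as a percentage of retained cells, 1 point per mouse with the group mean as a line, on the left with all UMIs and on the right with each cell thinned to 1000 UMIs. On the left the 3 sham + WT mice lie between 1.12% and 1.22%, above all 3 sham + Lrg1-/- mice, while the MCAO/R groups overlap in both panels.

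The main question for expression was what MCAO/R did to BAMs of wild-type mice. UMIs were summed over the BAMs of each mouse and tested for 9351 genes with edgeR's quasi-likelihood test with Benjamini-Hochberg adjustment. A gene was called at an adjusted p under 0.05 and a natural-log fold change beyond 0.25. In such sums, fewer cells of a state and less RNA per cell cannot be told apart. After MCAO/R, glucocorticoid-responsive genes and metallothioneins rose almost as a group, Spp1 and Saa3 rose from near 0, and Tslp, Clec12a, Lst1 and Ighm fell. In all, 137 genes rose and 100 fell, 2.53% of those tested (1.47% up and 1.07% down), and the sham and MCAO/R libraries did not overlap for 36.4%. Microglial markers moved with surgery here: 10 of them, 5 used by the rule, summed to 901 to 1067 CPM in sham + WT and 546 to 587 CPM in MCAO/R + WT BAMs, and Olfml3 was called lower among the 4 tested (log2 -1.70, adjusted p = 0.0374). BAMs with none of the 5 microglial rule genes were 15.5% to 23.1% of the class in sham + WT and 44.4% and 49.0% in MCAO/R + WT mice, and the part of this in the result was not tested.

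Of the 9 genes in the glucocorticoid and metallothionein list, 8 rose and none fell, with a median log2 change of 2.32 beside 0.01 over all genes. This list and the others below were chosen with earlier results of these data known, so their counts are not independent evidence. Fkbp5, which encodes a chaperone of the glucocorticoid receptor, stood at 19.5, 7.11 and 12.4 CPM in the sham + WT mice and at 422 and 751 CPM in the MCAO/R + WT mice. The groups lay far apart, and the log2 change was 5.45 (SE 0.38, adjusted p = 3.69e-05). Zbtb16, a zinc-finger transcription factor, stood at 18.5, 26.1 and 36.1 CPM and then at 259.8 and 534 CPM, a log2 change of 3.88 (SE 0.40, adjusted p = 7.62e-04). Ddit4, an inhibitor of mTOR signalling, was read at 2.93, 3.55 and 3.73 CPM against 49.6 and 78.7 CPM, a log2 change of 4.17 (SE 0.40, adjusted p = 5.79e-04). For all 3 genes both stroke mice were above every sham mouse, and the calls held in every alternative run that could be fitted.

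The metallothioneins bind zinc and copper. Mt2 went from 26.3, 11.8 and 16.2 CPM to 850.2 and 316 CPM, a log2 change of 4.98 (SE 0.58, adjusted p = 1.05e-03). Mt1, whose promoter is printed above, went from 654, 629 and 546 CPM to 3998 and 2069 CPM, a log2 change of 2.32 (SE 0.36, adjusted p = 6.46e-03). MCAO/R + WT replicate 1 was the higher of the pair for both genes, and the call for Mt1 was lost without it. Klf9, a transcription factor, rose by 2.22 on the log2 scale (SE 0.29, adjusted p = 2.58e-03). Sgk1, a serum- and glucocorticoid-regulated kinase, rose from 86.8, 39.1 and 54.7 CPM to 208 and 224 CPM (log2 1.83, SE 0.32, adjusted p = 0.0123). Tsc22d3 (GILZ), an anti-inflammatory leucine-zipper protein, went from 359, 247 and 321 CPM to 609 and 793 CPM (log2 1.18, SE 0.24, adjusted p = 0.0221). The groups did not overlap for Sgk1 or Tsc22d3, yet the Tsc22d3 call was lost without any of the 5 wild-type libraries, and the Sgk1 call was lost without each of them other than sham + WT replicate 1. Per1, a clock gene, was the member that did not pass (log2 0.39, SE 0.22, adjusted p = 0.439).

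The list kept most of its calls when single wild-type libraries were left out. There were 7, 6 and 6 without sham + WT replicates 1, 2 and 3, and 5 and 6 without MCAO/R + WT replicates 1 and 2. The change was also seen outside BAMs. Fkbp5 stood at 9.003 to 12.7 CPM in oligodendrocytes of sham + WT mice and at 375 to 474 CPM in those of MCAO/R + WT mice, and in microglia at 26.8 to 33.2 CPM and 424 to 551 CPM.

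**Figure D3:**
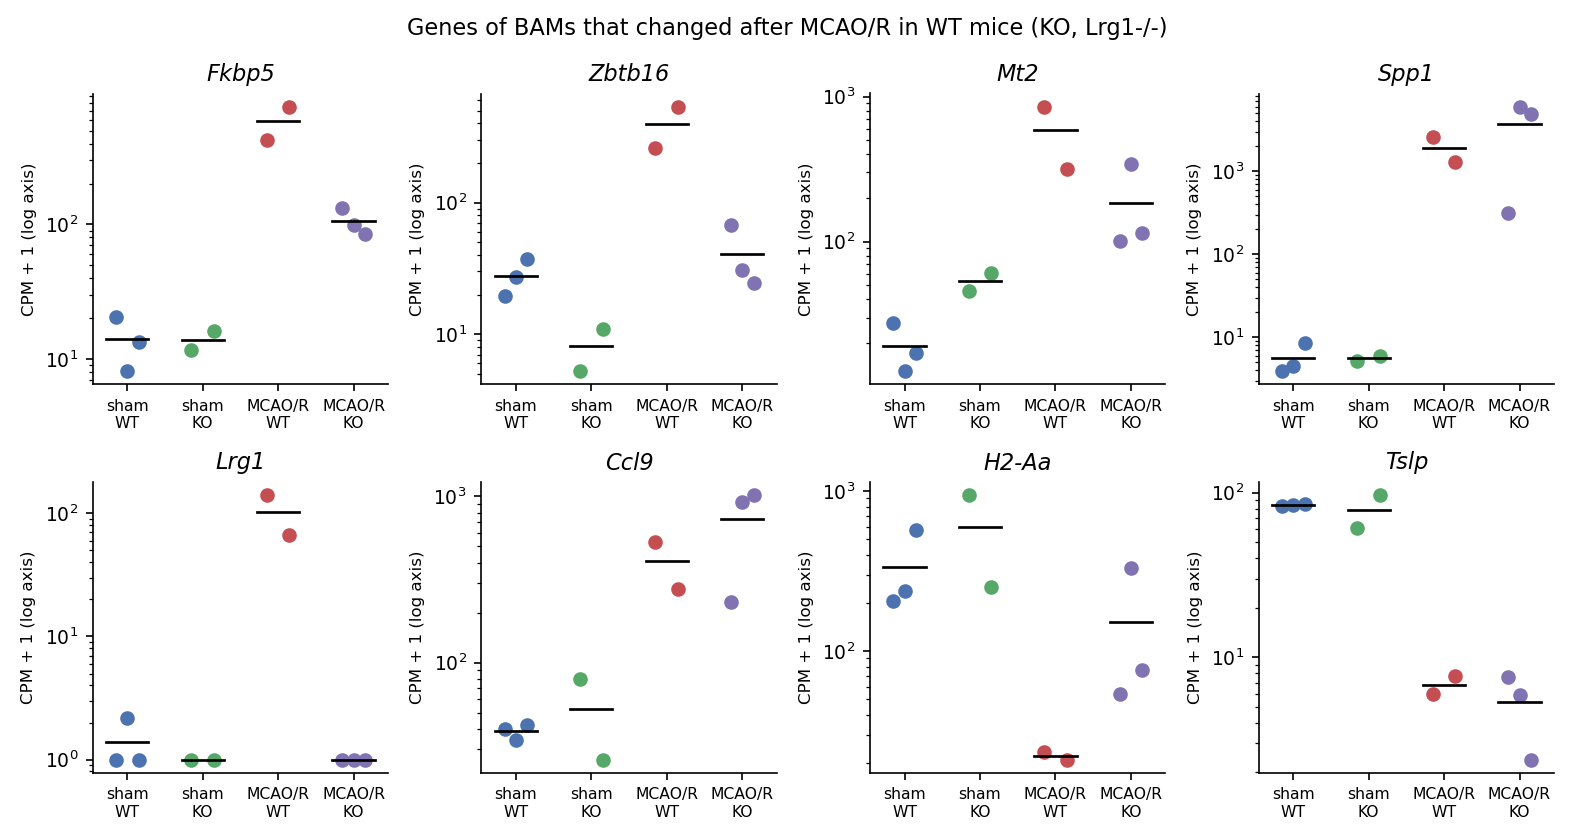
CPM + 1 on a log axis for 8 genes in the summed BAMs, 1 panel per gene, 1 point per mouse, with the group mean as a line and KO standing for Lrg1-/-. Fkbp5 stood at 7.11 to 19.5 CPM in sham + WT mice, 422 and 751 CPM in MCAO/R + WT mice and 83.2 to 133 CPM in MCAO/R + Lrg1-/- mice, and Tslp was low after MCAO/R in both genotypes.

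Secreted products moved in both directions. Spp1 encodes osteopontin, a matrix phosphoprotein of phagocytic macrophages. It stood at 2.93, 3.55 and 7.46 CPM in the sham + WT mice and at 2553 and 1303 CPM in the MCAO/R + WT mice (log2 8.69, SE 1.03, adjusted p = 1.11e-03). Ccl9, a chemokine of the CC family, went from 39.0, 33.2 and 41.1 CPM to 534 and 276 CPM (log2 3.42, SE 0.53, adjusted p = 6.46e-03), and the call was lost without sham + WT replicate 1 or MCAO/R + WT replicate 1. Ccl24, an eosinophil-attracting chemokine of resting BAMs, went the other way, from 399, 578 and 591 CPM to 257 and 148 CPM (log2 -1.36, SE 0.31, adjusted p = 0.0401). Both stroke mice were below every sham mouse for Ccl24, but its call was lost in 7 of 10 fits that left out 1 library, as was that of Timd4, a phosphatidylserine receptor (log2 -3.02, SE 0.71, adjusted p = 0.0431).

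Saa3, Lcn2 and Lrg1 were at or near 0 in sham BAMs. Saa3 (serum amyloid A3) had 3 counts in the pooled sham + WT BAMs and 10198 in the pooled MCAO/R + WT BAMs, a ratio of 3799 with a counting interval of 1300 to 18425. Per mouse it was 0, 2.37 and 1.24 CPM against 6175 and 322 CPM, so the stroke mice were far apart (log2 11.33, SE 1.66, adjusted p = 5.77e-03, lost without sham + WT replicate 1). Lcn2 (lipocalin 2, an iron-siderophore binder of neutrophils and reactive cells) had 0 counts against 636, at least 237-fold higher taking 3 counts as the most that a pooled count of 0 allows (adjusted p = 0.0314, lost in DESeq2 and without any of the 5 wild-type libraries). Lrg1 itself had 1 count against 274, a ratio of 306 with a counting interval of 54.5 to 12139 (log2 7.67, SE 0.71, adjusted p = 1.05e-03). Lrg1 and Lcn2 in BAMs stood at 0.119 and 0.0952 of their level in neutrophils of the same mice. Lrg1 was also present in endothelium after MCAO/R, at 268 to 299 CPM, and in neutrophils at 817 to 911 CPM. How much of the Lrg1 and Lcn2 signal was free RNA was not tested.

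Other genes with calls that held without any single library included Adam8, a metalloprotease of activated myeloid cells, at 6.83, 7.11 and 6.22 CPM against 194 and 108 CPM (log2 4.48, SE 0.50, adjusted p = 9.65e-04). Ttc39c, whose role in macrophages is little described, had 2 counts against 254 (log2 6.90, SE 0.64, adjusted p = 6.80e-04). Jaml, an adhesion molecule of leukocytes, had 2 counts against 177 (log2 6.49, SE 0.80, adjusted p = 2.19e-03). These 3 genes were higher in both stroke mice than in every sham mouse, which was a condition of their being picked and adds no evidence.

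Among the 100 genes that fell, 4 whose calls held without any single library are given. Tslp, the epithelial cytokine thymic stromal lymphopoietin, was even across sham + WT mice at 81.9, 82.9 and 84.6 CPM and stood at 4.96 and 6.67 CPM after MCAO/R (log2 -3.86, SE 0.41, adjusted p = 8.44e-04). Clec12a, an inhibitory lectin receptor for uric acid crystals, went from 160.0, 133 and 70.9 CPM to 14.9 and 6.67 CPM (log2 -3.36, SE 0.49, adjusted p = 4.39e-03). Lst1, a transmembrane protein of leukocytes, went from 348, 289 and 279 CPM to 44.6 and 20.02 CPM (log2 -3.17, SE 0.37, adjusted p = 1.05e-03). Ighm, the immunoglobulin mu constant region, went from 93.6, 73.4 and 94.6 CPM to 15.5 and 5.34 CPM (log2 -2.90, SE 0.40, adjusted p = 3.00e-03). No stroke mouse reached a sham mouse for these 4 genes, but they too were picked from calls without overlap.

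A few antigen presentation genes were lower. Of 12 tested genes in the list of MHC class II and choroid plexus BAM genes, 3 fell and none rose, with a median log2 change of -1.71 beside 0.01 over all genes. H2-Aa, an MHC class II alpha chain, stood at 205, 237 and 569 CPM in sham + WT mice and at 22.3 and 20.02 CPM in MCAO/R + WT mice (log2 -3.97, SE 0.85, adjusted p = 0.0293). H2-Eb1 (log2 -3.42, SE 0.82, adjusted p = 0.0484) and H2-DMb1 (log2 -1.99, SE 0.39, adjusted p = 0.0183) were the others. H2-Ab1 (log2 -3.65, SE 0.89, adjusted p = 0.0504) and Cd74, the invariant chain (log2 -2.44, SE 0.72, adjusted p = 0.109), did not pass. None of the 3 calls was made without any one of the 5 wild-type libraries. Other markers moved with this group: summed dendritic cell markers were 41.0 to 84.1 CPM in sham + WT mice and 9.34 to 19.2 CPM in MCAO/R + WT mice, and summed choroid epithelium markers 525 to 1982 CPM and 112 to 336 CPM, with Folr1 called lower. The share of BAMs with a Lyve1 UMI was 35.8% to 43.5% in sham + WT mice and 65.4% to 77.2% in MCAO/R + WT mice. The part of these in the result was not tested. Outside BAMs, H2-Aa stood at 20.8 to 43.0 CPM in sham + WT oligodendrocytes and at 4.09 to 23.1 CPM after MCAO/R, ranges that overlapped and were not tested.

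The haem and iron list had 2 genes up, Hmox1 and Slc11a1, and 1 down of 12, Hpgd, which is not a haem or iron gene. Hmox1, haem oxygenase 1, went from 478, 387 and 352 CPM to 2385 and 1936 CPM (log2 2.41, SE 0.45, adjusted p = 0.0147). Slc11a1, an iron and manganese exporter of phagosomes, rose by 1.002 (SE 0.22, adjusted p = 0.0319), and Hpgd, which breaks down prostaglandins, fell by 2.29 (SE 0.51, adjusted p = 0.0356). All 3 calls were lost without any of the 5 wild-type libraries. Heat shock genes fell in 3 of 9 cases, led by Hsp90aa1 (log2 -1.63, SE 0.23, adjusted p = 4.35e-03, lost without MCAO/R + WT replicate 2). Hspa1b, the inducible HSP70, stood at 554, 1472 and 1532 CPM in sham mice and at 93.0 and 37.4 CPM after MCAO/R (log2 -4.14, SE 0.75, adjusted p = 0.0128). Its call and that of Hsph1 were lost without sham + WT replicate 2 or either MCAO/R + WT replicate. Of 10 immediate-early genes, 18 macrophage transcription factors and 15 cytokine and NF-kappaB genes, none was called.

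The total was sensitive to single mice. It was 52, 57 and 93 calls without sham + WT replicates 1, 2 and 3, 45 and 72 without MCAO/R + WT replicates 1 and 2, and 432 without MCAO/R + Lrg1-/- replicate 1, which enters the shared estimate of spread.

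**Figure D4:**
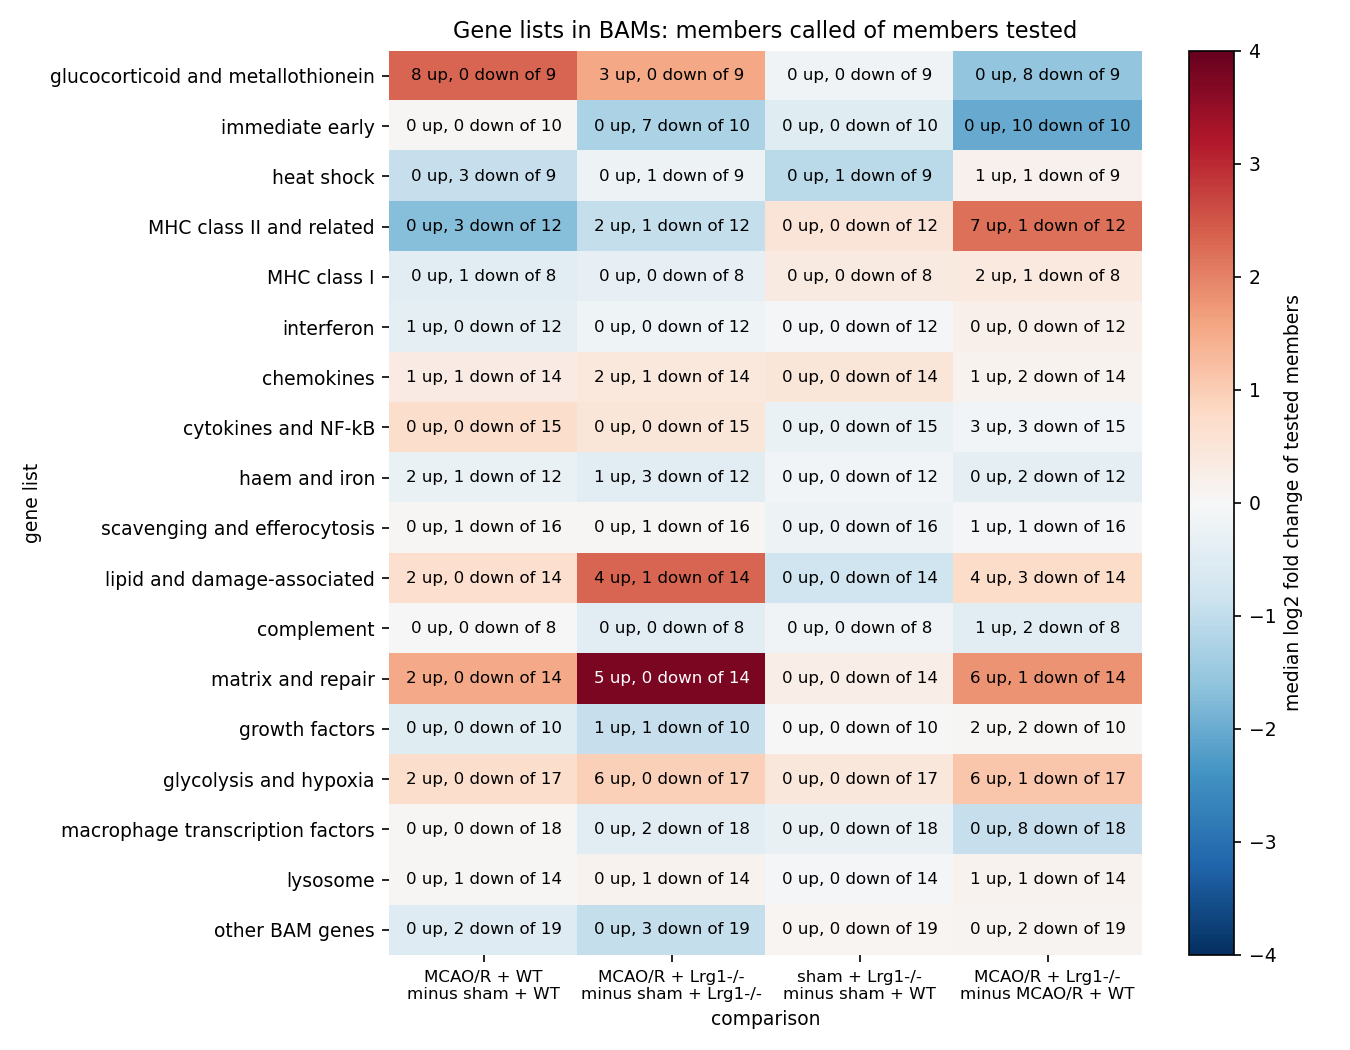
Median log2 fold change of 18 gene lists (rows) in 4 comparisons (columns) as colour, red for higher and blue for lower, with the number of genes called higher and lower of those tested in each cell. The glucocorticoid and metallothionein list lies at 2.32 for MCAO/R against sham in wild-type mice and at -1.59 for MCAO/R + Lrg1-/- against MCAO/R + WT.

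The same surgery was then compared in knockout mice. MCAO/R + Lrg1-/- BAMs had more Spp1, Ccl9, Ccl6, Eno1, Pgk1 and Fabp5 and less of most immediate-early genes, Tslp, Ighm and Apoe than sham + Lrg1-/- BAMs. The calls of all 6 higher genes were lost without sham + Lrg1-/- replicate 1 or replicate 2. Markers of other cells moved with surgery here: 2 of 4 neutrophil markers and 1 of 7 monocyte markers (Ccr2) were called higher, with median log2 changes of 5.84 and 4.20. Summed neutrophil markers were 40.2 to 55.3 CPM in sham + Lrg1-/- mice and 39.8 to 1733 CPM in MCAO/R + Lrg1-/- mice, and summed monocyte markers 15.1 to 63.8 CPM and 33.1 to 2499 CPM. Their part in the result was tested only by leaving out monocyte-marked cells. In all, 149 genes rose and 204 fell, 3.77% of those tested (1.59% up and 2.18% down), and the libraries did not overlap for 33.4%. Higher calls outnumbered lower ones with sham + Lrg1-/- replicate 5 kept (284 and 178), with cells of under 1% haemoglobin UMIs (561 and 479) and without MCAO/R + Lrg1-/- replicate 1 (547 and 497). Only 2 sham + Lrg1-/- libraries entered, since replicate 5 had 12 BAMs, and the total dropped to 8 calls without replicate 1 (1 higher and 7 lower) and to 12 without replicate 2 (0 higher and 12 lower). It was 1044 without MCAO/R + Lrg1-/- replicate 1, 116 without replicate 5, 133, 152 and 192 without sham + WT replicates 1, 2 and 3, and 125 when cells with 2 or more monocyte markers were left out.

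Of the genes named here, Tslp was the one whose call held in all 10 fits that left out 1 library. It stood at 59.6 and 95.4 CPM in sham + Lrg1-/- mice and at 6.63, 4.91 and 1.39 CPM in MCAO/R + Lrg1-/- mice (log2 -4.36, SE 0.45, adjusted p = 2.08e-03). Ighm went from 129.8 and 65.3 CPM to 13.3, 11.4 and 15.3 CPM (log2 -2.94, SE 0.40, adjusted p = 0.0105, lost without sham + Lrg1-/- replicate 1). Apoe, the lipid carrier and the most abundant of these transcripts, went from 27958 and 32005 CPM to 10942, 9463 and 8657 CPM (log2 -1.63, SE 0.20, adjusted p = 6.07e-03, lost without sham + Lrg1-/- replicate 2). The groups did not overlap for any of the 3 genes, which for Tslp and Ighm was a condition of their being picked.

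Spp1 had 3 counts in the pooled sham + Lrg1-/- BAMs and 18014 after MCAO/R, a ratio of 1193 with a counting interval of 408 to 5786. Per mouse it was 4.25 and 5.02 CPM against 312, 5981 and 4851 CPM (log2 9.66, SE 1.37, adjusted p = 0.0105), with replicate 1 well below the others. Without cells that had 2 or more monocyte markers the log2 change was 9.02. Oligodendrocytes of the MCAO/R + Lrg1-/- mice read Spp1 at 1136 to 6389 CPM, so the transcript was read in other cells too. Ccl6, a CC chemokine, went from 93.6 and 120.5 CPM to 252, 1349 and 2352 CPM (log2 3.67, SE 0.72, adjusted p = 0.0207). Ccl9 rose by 3.70 (SE 0.63, adjusted p = 0.0144) and Ccl24 fell by 1.31 on the log2 scale (adjusted p = 0.0344). The Ccl24 call was kept in 4 of the 10 fits that left out 1 library.

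Of 10 immediate-early genes, 7 fell and none rose, with a median log2 change of -1.26 beside -0.00 over all genes. Fos, a subunit of the AP-1 transcription factor, went from 3134 and 2776 CPM to 822, 1541 and 983 CPM (log2 -1.40, SE 0.26, adjusted p = 0.0197). Zfp36, which destabilises inflammatory mRNAs, fell by 1.77 (SE 0.28, adjusted p = 0.0129). The list had no call without sham + Lrg1-/- replicate 1 and 1 without replicate 2. Of 17 glycolysis and hypoxia genes, 6 rose, among them Eno1 (log2 2.29, SE 0.37, adjusted p = 0.0132) and Pgk1 (log2 1.80, SE 0.31, adjusted p = 0.0144). Pgk1 remained called without cells bearing 2 or more monocyte markers (log2 1.26, adjusted p = 0.0489), where the list held 4 calls.

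In the glucocorticoid list 3 of 9 genes rose, Fkbp5 (log2 3.03, SE 0.53, adjusted p = 0.0144), Ddit4 (log2 2.75) and Sgk1 (log2 1.54). None of the 9 was called without sham + Lrg1-/- replicate 1 or replicate 2, and with each of the 10 libraries left out in turn Fkbp5 was called in 8 fits, Sgk1 in 4 and Ddit4 in 3. Fkbp5 stood at 10.6 and 15.1 CPM in sham + Lrg1-/- mice and at 133, 98.7 and 83.2 CPM after MCAO/R. Mt2 did not pass (log2 1.94, adjusted p = 0.101). In lipid and damage-associated genes, 4 rose and 1 fell of 14, and Fabp5, a fatty-acid carrier, stood at 29.8 and 15.1 CPM against 113, 1008 and 2315 CPM (log2 5.57, SE 1.01, adjusted p = 0.0164). Slc40a1 (ferroportin, the cellular iron exporter) fell from 111 and 176 CPM to 6.63, 19.6 and 25.7 CPM (log2 -2.73, SE 0.40, adjusted p = 0.0106), but the change was 0.0294 with cells thinned to 1000 UMIs (adjusted p = 0.995). Its call, too, was lost without either sham + Lrg1-/- library. Without cells that had 2 or more monocyte markers, Fabp5 changed by 4.03 (adjusted p = 0.0131) and Slc40a1 by -1.58 (adjusted p = 0.162). Matrix and repair genes rose in 5 of 14 cases, and in 0 without MCAO/R + Lrg1-/- replicate 5 or without the monocyte-marked cells.

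Before any stroke, few genes were called between sham + Lrg1-/- and sham + WT BAMs. Sham + Lrg1-/- replicate 5 did not enter, and on simulated data this comparison recovered 18.8% of 2-fold and 71.4% of 4-fold changes. A low count therefore does not show that the groups were alike. There were 13 higher and 5 lower calls, 0.192% of those tested (0.139% up and 0.0535% down; libraries did not overlap for 37%), and the higher ones were led by genes of red blood cells and choroid plexus epithelium. Hbb-bs, adult beta-globin, stood at 17.6, 14.2 and 13.7 CPM in sham + WT mice and at 29505 and 3318 CPM in sham + Lrg1-/- mice (log2 10.06, SE 0.87, adjusted p = 3.93e-04). Of 5 erythroid markers 4 were called higher, and of 5 choroid epithelium markers 3 were, with the summed choroid level at 525 to 1982 CPM in the wild-type mice and 8322 to 11852 CPM in the knockouts. For 12 of the 13 higher genes the level in BAMs was under 0.1 of that in another cell class. The part of these other cells in the result was not tested.

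The 5 lower genes were Hsp90aa1 (log2 -1.37, SE 0.23, adjusted p = 0.0407), Txnip, an inhibitor of thioredoxin and glucose uptake (log2 -1.45, SE 0.25, adjusted p = 0.0429), Manba, lysosomal beta-mannosidase (log2 -2.15, SE 0.36, adjusted p = 0.0388), Tagap (log2 -2.44, SE 0.42, adjusted p = 0.0407) and Bmt2 (log2 -2.05, SE 0.31, adjusted p = 0.0203). Each of these calls was lost when any one of the 5 sham libraries was left out. The total was 4, 3 and 6 calls without sham + WT replicates 1, 2 and 3, 6 and 11 without sham + Lrg1-/- replicates 1 and 2, and 64, 26 and 45 without MCAO/R + Lrg1-/- replicates 1, 2 and 5. None of 10 immediate-early genes was called here, although Fos stood at 6879, 5858 and 7329 CPM in sham + WT mice and at 3134 and 2776 CPM in sham + Lrg1-/- mice (log2 -1.18, SE 0.28, adjusted p = 0.117).

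The genotypes were next compared after MCAO/R. MCAO/R + Lrg1-/- BAMs had less of every immediate-early gene, of most glucocorticoid-responsive genes, of ferroportin and of the costimulatory ligand Cd86, and more of most haemoglobin, monocyte and choroid markers and of 6 of 17 glycolytic genes than MCAO/R + WT BAMs. There were 738 higher and 752 lower calls, 15.9% of those tested (7.89% up and 8.04% down), and the libraries did not overlap for 39.6%. Since this comparison shares the MCAO/R + WT libraries with the wild-type stroke comparison, a gene high in those 2 mice tends to rise in one and fall in the other.

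All 10 immediate-early genes were lower, with a median log2 difference of -2.01 beside 0.03 over all genes. Fos stood at 6792 and 7534 CPM in MCAO/R + WT mice and at 822, 1541 and 983 CPM in MCAO/R + Lrg1-/- mice (log2 -2.67, SE 0.27, adjusted p = 4.60e-04). Jun, its AP-1 partner, stood at 9008 and 11472 CPM against 2313, 1719 and 742 CPM (log2 -2.70, SE 0.36, adjusted p = 1.18e-03). The phosphatase gene Dusp1, which shuts off MAP kinases, stood at 3361 and 3889 CPM against 431, 773 and 573 CPM (log2 -2.60, SE 0.26, adjusted p = 4.60e-04). For these 3 genes every knockout mouse was far below both wild-type mice. Atf3 (log2 -2.06, SE 0.22, adjusted p = 4.60e-04) and Zfp36 (log2 -1.94, SE 0.28, adjusted p = 1.91e-03) were the other best-measured members.

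The immediate-early calls did not rest on one knockout library. All 10 genes were called without MCAO/R + Lrg1-/- replicate 1, 2 or 5 and without cells bearing 2 or more monocyte markers, where the differences were smaller for Fos (-2.39, adjusted p = 2.77e-04) and Jun (-2.22, adjusted p = 1.33e-04). There were 8 calls without MCAO/R + WT replicate 1 and 6 without replicate 2. Microglia of the same mice read Fos at 5921 to 6076 CPM in MCAO/R + WT and 1573 to 2421 CPM in MCAO/R + Lrg1-/-, and endothelial cells at 6579 to 6846 CPM and 3152 to 4149 CPM. These genes respond to tissue dissociation, and the methods give a digestion temperature and a range of times but not the time for each mouse, so that part was not tested.

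Macrophage transcription factors were lower in 8 of 18 cases and higher in none, with a median of -0.93. Klf2, a quiescence factor, stood at 3899 and 3842 CPM against 1159.8, 1086 and 401 CPM (log2 -2.15, SE 0.36, adjusted p = 3.51e-03). Maf, a factor of resident macrophage identity, stood at 722 and 1097 CPM against 530.2, 303 and 296 CPM (log2 -1.31, adjusted p = 0.0114). Without cells that had 2 or more monocyte markers, 6 of the 17 then tested were called, with Maf at -1.08 (adjusted p = 0.015). There were 5 calls in this list without MCAO/R + WT replicate 1 and 2 without replicate 2.

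Of the 9 glucocorticoid and metallothionein genes 8 were lower, with a median of -1.59. Fkbp5 stood at 422 and 751 CPM in MCAO/R + WT mice and 133, 98.7 and 83.2 CPM in MCAO/R + Lrg1-/- mice (log2 -2.55, SE 0.33, adjusted p = 1.10e-03). Zbtb16 stood at 259.8 and 534 CPM against 66.3, 29.98 and 23.6 CPM (log2 -3.63, SE 0.41, adjusted p = 4.98e-04). Tsc22d3 stood at 609 and 793 CPM against 239, 222 and 209 CPM (log2 -1.66, SE 0.25, adjusted p = 2.11e-03). Klf9 was lower by a log2 difference of -1.88 (SE 0.30, adjusted p = 2.76e-03). Every knockout mouse was below both wild-type mice for Fkbp5, Zbtb16 and Tsc22d3. Sgk1 was the member that did not pass, at 208 and 224 CPM against 212, 374 and 359.9 CPM (log2 0.58, adjusted p = 0.240). There were 7, 8 and 7 calls without MCAO/R + Lrg1-/- replicates 1, 2 and 5, 6 without monocyte-marked cells, and 6 and 5 without MCAO/R + WT replicates 1 and 2. Fkbp5 was lower in the oligodendrocytes of these knockouts too, at 69.4 to 126 CPM.

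Surface and iron genes followed. Cd86, a ligand for CD28 on T cells, stood at 2534 and 3258 CPM against 789, 534 and 449 CPM (log2 -2.31, SE 0.29, adjusted p = 7.26e-04). Slc40a1 stood at 122 and 219 CPM against 6.63, 19.6 and 25.7 CPM (log2 -3.01, SE 0.38, adjusted p = 8.13e-04), and at -1.87 without monocyte-marked cells (adjusted p = 0.0302). Lrg1 had no count in the knockouts, at least 133-fold lower on the same footing. The study picked out 6 macrophage molecules in these mice, so their counts are not independent evidence, and of the 5 tested Il10 and Arg1 were higher and Cd86 and Tnf lower. Tnf, the inflammatory cytokine, stood at 417 and 271 CPM against 113, 147 and 126 CPM (log2 -1.40, adjusted p = 0.0267), and Il10, the anti-inflammatory cytokine, at 16.1 and 5.34 CPM against 26.5, 45.2 and 54.1 CPM (log2 1.94, adjusted p = 0.0183). The Tnf call was lost without MCAO/R + WT replicate 1 (adjusted p = 0.183), MCAO/R + WT replicate 2 or MCAO/R + Lrg1-/- replicate 5. The Il10 call was lost without MCAO/R + WT replicate 2 (adjusted p = 0.165) or MCAO/R + Lrg1-/- replicate 5. Arginase 1 (Arg1), an enzyme of repair-type macrophages, stood at 2.48 and 4.004 CPM against 0, 621 and 1936 CPM (log2 8.13, adjusted p = 5.63e-03), a call lost without MCAO/R + WT replicate 1 (adjusted p = 0.0526) or replicate 2 (adjusted p = 0.0763). MCAO/R + Lrg1-/- replicate 1 had no Arg1 count, so the groups overlapped, and without monocyte-marked cells the difference was 5.56 (adjusted p = 5.70e-03). Arg1 was tested in only 8 of the 10 fits that left out 1 library, and was called in 6.

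Several higher groups moved with markers of other cells. Of 7 monocyte markers 6 were higher, as were 5 of 5 erythroid, 5 of 5 choroid epithelium and 3 of 4 neutrophil markers. Summed neutrophil markers were 44.0 to 71.3 CPM in MCAO/R + WT mice and 39.8 to 1733 CPM in MCAO/R + Lrg1-/- mice. Ccr2, the receptor that draws monocytes from blood, stood at 1.86 and 10.7 CPM in MCAO/R + WT mice and at 6.63, 82.9 and 306 CPM in MCAO/R + Lrg1-/- mice, and Il1b, the cytokine interleukin 1 beta, at 97.4 and 9.34 CPM against 19.9, 1147 and 2151 CPM. Both stood high in replicates 2 and 5 only, and the groups overlapped. Il1b (log2 4.32, adjusted p = 0.0331) and Vegfa, the angiogenic growth factor (log2 4.64, adjusted p = 2.95e-03), were not called without monocyte-marked cells, at 2.34 (adjusted p = 0.0765) and 2.32 (adjusted p = 0.0619). Glycolytic genes were higher in 6 of 17 cases and lower in 1 (Hk2), and higher in 2 without MCAO/R + WT replicate 2. Among them, 2 that remained called without those cells were Ldha, lactate dehydrogenase A (log2 1.32, adjusted p = 0.0151, from 1.84), and Pgk1, phosphoglycerate kinase (log2 1.47, adjusted p = 4.07e-03, from 1.97). The list of MHC class II and choroid plexus BAM genes had 7 higher and 1 lower of 12. Of the 7, H2-Aa, H2-DMa and H2-DMb1 are MHC class II genes, and the others were Cd72, Cd52, Klra2 and Ccr2, the last also a monocyte marker. H2-Aa stood at 22.3 and 20.02 CPM against 53.0, 328 and 75.6 CPM (log2 2.95, adjusted p = 0.0305). Its list had 3 calls without monocyte-marked cells, 4 without MCAO/R + Lrg1-/- replicate 2, 2 without MCAO/R + WT replicate 1 and 0 without MCAO/R + WT replicate 2. The part of monocytes, neutrophils and blood RNA in these differences was not tested further.

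Leaving out MCAO/R + WT replicate 2 took the total of genotype calls after MCAO/R to 185, and leaving out replicate 1 took it to 880. Without MCAO/R + Lrg1-/- replicate 1 it was 2177, without replicate 2 it was 1015 and without replicate 5 it was 814.

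The interaction of genotype and surgery asked whether the stroke response itself differed between genotypes. A single gene was called by edgeR, 0.0107% of those tested, and 985 genes had an unadjusted p under 0.05. DESeq2 called 48. Gm46224, a predicted gene without a described function, stood at 48.8, 80.5 and 42.3 CPM in sham + WT mice, 143 and 136 CPM in sham + Lrg1-/- mice, 191 and 149 CPM in MCAO/R + WT mice and 19.9, 47.4 and 31.9 CPM in MCAO/R + Lrg1-/- mice. It rose with MCAO/R in wild-type mice and was lower after it in knockouts, an interaction of -3.48 (SE 0.46, adjusted p = 0.0450). When 1 library was left out, no gene was called in 6 of 10 fits (without sham + WT replicate 1 or 3, either sham + Lrg1-/- replicate or either MCAO/R + WT replicate), and 21, 2 and 7 were called without MCAO/R + Lrg1-/- replicates 1, 2 and 5. The interaction for Fos was -1.50 (SE 0.37, adjusted p = 0.241) and for Fkbp5 -2.42 (SE 0.77, adjusted p = 0.292). Apart from Gm46224, the main edgeR fit therefore did not show the differences between genotypes after MCAO/R to differ from those between the sham groups.

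A last comparison set the wild-type stroke response of BAMs beside that of microglia from the same mice, with the mouse as a block. Over 14002 genes, 84 responded more positively in BAMs and 82 less, 1.19% of those tested (0.6% up and 0.586% down). The responses of Ccl9, Ccl6, Saa3, Ttc39c and Mt2 were more positive in BAMs than in microglia, and those of Msr1, Lilrb4a, Apoe, Stab1 and Il10 were less positive. Microglia themselves had 2889 calls for stroke, 16.2% of the genes tested in them.

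**Figure D5:**
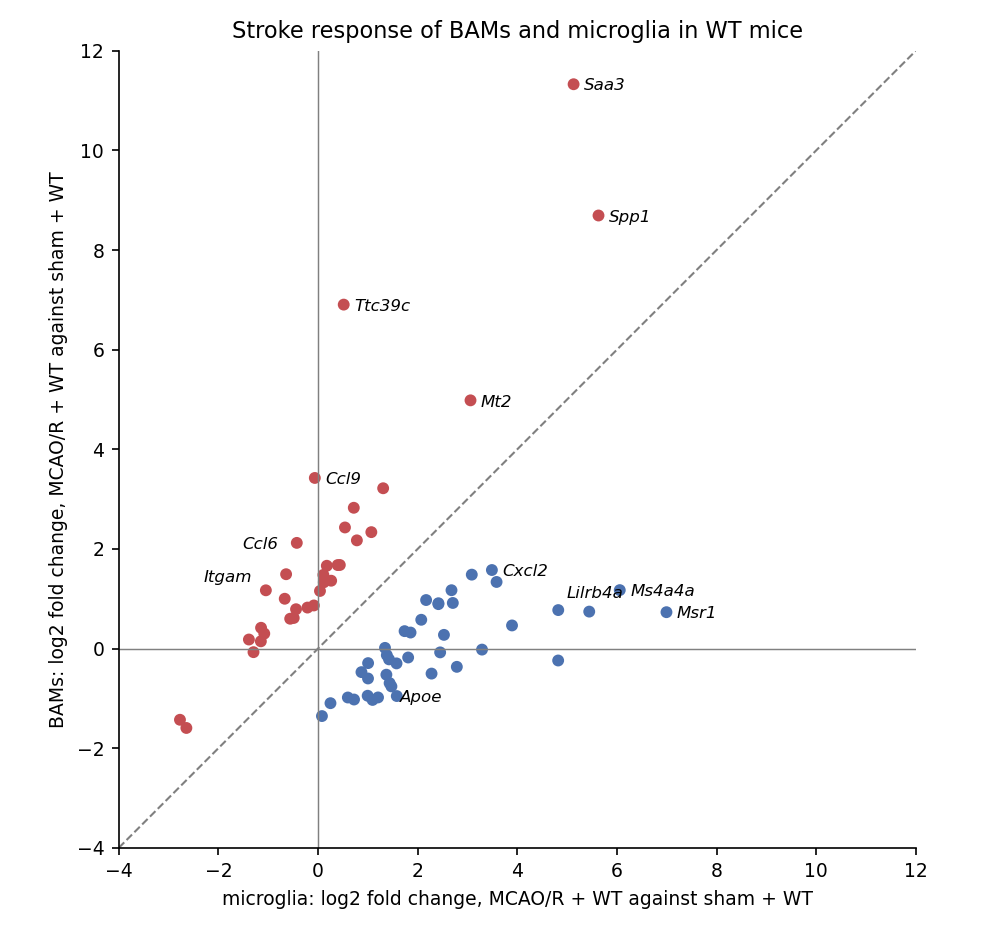
Log2 fold change after MCAO/R in wild-type mice, microglia on the x axis and BAMs on the y axis, with a dashed line of equal change. The genes are those whose responses differed and whose mean in sham + WT or MCAO/R + WT BAMs reached 100 CPM. Genes that reached it in microglia only are left out. Of 74 genes, 33 (red) lie above the line and 41 (blue) below it.

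Ccl9 had a mean of 37.7 CPM in sham and 405 CPM in MCAO/R BAMs, and 62.4 and 59.6 CPM in microglia (log2 difference of responses 3.59, SE 0.44, adjusted p = 1.10e-04). Ccl6 had means of 66.4 and 288 CPM in BAMs and 65.3 and 48.6 CPM in microglia (difference 2.66, SE 0.47, adjusted p = 6.47e-03). Ttc39c had means of 0.740 and 106 CPM in BAMs and 1.47 and 2.11 CPM in microglia (difference 6.72, SE 0.76, adjusted p = 7.14e-05). The change in microglia passed for none of these 3 genes, and that of Ccl6 did not pass in BAMs either (adjusted p = 0.0903). Spp1 rose in both, from 9.41 to 466 CPM in microglia and from 4.65 to 1928 CPM in BAMs (difference 4.08, SE 0.91, adjusted p = 0.0286). In the glucocorticoid list 8 of 9 differences were positive and 1 passed the test, that of Mt2 (difference 2.13, SE 0.33, adjusted p = 2.07e-03).

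Msr1, the class A scavenger receptor, had means of 157 and 258 CPM in BAMs, where its change was not called, and 1.33 and 170.1 CPM in microglia (difference -5.85, SE 0.39, adjusted p = 7.03e-08). Lilrb4a, an inhibitory immunoglobulin-like receptor, had means of 334 and 571 CPM in BAMs and 9.87 and 279 CPM in microglia (difference -3.84, SE 0.33, adjusted p = 1.65e-06). Apoe had means of 31640 and 19570 CPM in BAMs and 632 and 1712 CPM in microglia (difference -1.89, SE 0.37, adjusted p = 0.0108). Stab1, the scavenger receptor of resident BAMs, had means of 579 and 402 CPM in BAMs and 88.0 and 228 CPM in microglia (difference -1.79, SE 0.32, adjusted p = 5.89e-03). Il10 followed the same pattern, with means of 33.1 and 10.7 CPM in BAMs and 10.6 and 22.1 CPM in microglia (difference -2.31, SE 0.55, adjusted p = 0.0413). All 5 genes rose in microglia after stroke, and none was called in BAMs. The total was 105, 87 and 103 without sham + WT replicates 1, 2 and 3 and 61 and 125 without MCAO/R + WT replicates 1 and 2. It was 438, 201 and 272 without MCAO/R + Lrg1-/- replicates 1, 2 and 5, which enter the estimate of spread.

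Within the class, BAMs with and without a Lyve1 UMI were compared in each library as a description, since Lyve1 is a rule gene. The summed MHC class II level (Cd74, H2-Aa, H2-Ab1 and H2-Eb1) was lower in Lyve1-positive cells in 10 of 11 libraries, by a mean log2 difference of -2.50 (SD 1.68). In sham + WT mice it was 293 against 2416 CPM, 1083 against 1886 CPM and 146 against 6613 CPM. F13a1 (mean log2 difference 1.16), Clec10a (1.33), Stab1 (0.64), Maf (0.55) and Cd209f, a lectin of the DC-SIGN family (2.08), were higher in Lyve1-positive cells in 11 of 11 libraries, and Folr2 in 10 of 11 (1.47). Monocyte markers were lower in Lyve1-positive cells in 9 of 11 libraries. Depth differed between the cells compared, and a deeper cell has more chance of a Lyve1 UMI. Median UMIs were 7612 with and 4214 without Lyve1 in sham + WT replicate 1, nearly even in sham + Lrg1-/- replicate 5 (2084 and 2027), and the other way round in MCAO/R + Lrg1-/- replicates 2 (7213 and 12715) and 5 (5605 and 10284).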

How the data were processed

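The deposited files hold UMI counts per gene and barcode, which the authors made from 10x Chromium 3′ libraries with Cell Ranger on mm10. The file headers name version 7.0.1, and the methods another. All matrices list 32285 genes. The members and gene lists were chosen with earlier results of these data known.

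Counts of BAMs were summed per mouse for libraries with at least 20 BAMs, which left 10. Genes were filtered by filterByExpr, the 16 rule genes were left out, and all 4 groups were fitted together in edgeR 4.0.16 (quasi-likelihood test, TMM, Benjamini-Hochberg adjustment) under R 4.3.3. CPM values of summed BAMs are TMM-scaled, with no length correction, since 3′ counts need none. Levels given as ranges for other cell classes, and those of BAMs split by Lyve1, are plain CPM. Ratios of BAMs to other classes therefore mix the scales. Microglial means in the comparison of responses are TMM-scaled in a fit of microglia. BAM and microglia responses were compared in 1 fit with mouse as a block. Shares were tested by exact permutation of genotype within surgery (SciPy 1.17.1). Doublets were kept in the main analysis, and 39 BAMs were marked by a doublet score as an alternative. Named genes were members of the gene lists, Lrg1, the rule genes as levels and, in each comparison and direction, the 10 calls of largest fold among genes whose libraries did not overlap and whose mean was at least 50 CPM; others, such as Gm46224, were named after their values were seen. The 4 group comparisons of the main fit were run on simulated data. They recovered 14.3% to 25.5% of 2-fold changes and 65.3% to 79.2% of 4-fold changes. The interaction, the comparison with microglia and the alternatives were not simulated. Counting intervals are exact at 95% and cover counting error only. Alternatives were DESeq2 1.42.0, its size factors, no filter, thinning to 1000 UMIs, at least 4 markers, under 10% mitochondrial UMIs, doublets removed, the replicate block, cells with under 1% haemoglobin UMIs with genes of other cells left out, and each library left out. Leaving out cells with 2 or more monocyte markers, keeping sham + Lrg1-/- replicate 5 and the thinned share among BAMs and microglia were added after seeing the data. Library depth was 37159497 to 171813031 UMIs. Genes with a near-identical copy, such as the globins, and overlapping genes are uncertain. Promoter sequences are from RefSeq. 1 gene is not reported here.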

Additional observations from a re-analysis of the deposited data

Results flagged for a closer look

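A difference between groups singled out 2 results. Gm46224 had an interaction of genotype and surgery of -3.48 on the log2 scale (SE 0.46, edgeR adjusted p = 0.0450), rising after MCAO/R in wild-type BAMs and standing lower after it in Lrg1-/- BAMs. The wild-type response to MCAO/R differed between BAMs and microglia for 166 genes, 84 more positive in BAMs and 82 less, by the test of the difference itself in edgeR with mouse as a block. Microglia were chosen by detection of the microglial rule genes, and the part of that choice in the 166 differences was not tested.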

How the results depend on the processing

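Over all alternatives, named genes kept direction and call in 2993 cases, kept direction without a call in 812, and reversed in 1, Slc40a1 between the knockout groups, at 0.0294 with cells thinned to 1000 UMIs. The cause was not tested. Requiring at least 4 markers, and keeping cells with under 1% haemoglobin UMIs (called low-haemoglobin here, with genes of other cells also left out), took MCAO/R + Lrg1-/- replicate 1 under 20 BAMs, so these fits also lacked that library, whose removal alone gave 432, 1044, 64, 2177, 21 and 438 calls in the order of the 6 comparisons below. Calls for MCAO/R in wild-type BAMs were 673 with no filter, 137 with thinned cells, 491 with at least 4 markers, 427 with low-haemoglobin cells and 435 without monocyte-marked cells, and 45 to 432 with 1 library left out. Calls for MCAO/R in knockouts were 911, 103, 535, 1040 and 125 in the same order, and 8 to 1044, and higher calls outnumbered lower ones in the first 4 (469 and 442, 58 and 45, 284 and 251, 561 and 479). Genotype calls in sham mice were 73 in DESeq2, 212 with no filter, 65 with at least 4 markers and 73 without monocyte-marked cells, and 3 to 64. Genotype calls after MCAO/R were 546 with thinned cells and 883 without monocyte-marked cells, and 185 to 2177. Interaction calls were 48 in DESeq2, 210 with no filter, 2 with thinned cells, 8 with at least 4 markers, 18 with low-haemoglobin cells, and 0 under 10% mitochondrial UMIs, with doublets removed or with sham + Lrg1-/- replicate 5 kept, and 0 to 21. Calls for BAMs against microglia were 428 with no filter, 60 with thinned cells and 410 with at least 4 markers, and 61 to 438. The share difference was -0.354 points with thinned cells, 0.0256 points among BAMs and microglia and -6.94 points with both, and -0.727 to -0.323 points.

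Deviations from the group mean in same-numbered libraries had correlations from -0.198 to 0.0635. With so few libraries in each group, such correlations cannot show whether replicate numbers paired the mice. With the replicate number as a block there were 116 calls for MCAO/R in wild-type mice, 16 in knockouts, 425 for genotype after MCAO/R and 3 for the interaction. Depth limits low genes most: groups held 124 to 383 BAMs.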
